A study of Homo sapiens and Mus musculus with 8 samples.

Results

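The replication-dependent histone genes are the protein-coding genes of the histone clusters, whose older symbols start with HIST1H, HIST2H, HIST3H or HIST4H. Of the 60433 gene rows in the deposited counts, 71 mapped to them: 6 for histone H1, 17 for H2A, 18 for H2B, 15 for H3 and 15 for H4. The rule of membership used the gene symbols and no measured value, but it was chosen with earlier results of these data known. Ratios are given for the 23 members with at least 1 CPM (counts scaled to a common library size, with TMM factors where a level is given) in at least 2 libraries, and 16070 genes of the whole table passed the same filter. The kept members are 3 of 6 H1, 6 of 17 H2A, 9 of 18 H2B, 3 of 15 H3 and 2 of 15 H4 genes. They hold 93.1% of the 22374 reads counted in members, and 8 members had no counts in any library.

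RNA sequencing covered KM12 and LS174T, which are colorectal cancer lines of human origin, grown in culture or as xenografts (CDX tumors, grown from the human line in a mouse), with 1 library in each of 8 groups. The KM12 groups were labelled parental, genotype GNASR201H, or GNAS Knock-out (KO). The LS174T groups were all labelled GNASR201H, with Dox (-) or Dox (+). GNAS encodes the stimulatory G protein alpha subunit, which activates adenylyl cyclase, and the series title asks whether tumors with the R201 mutation depend on it. The labels do not say what Dox induces, whether the knockout is 1 clone, which mice were used, or the age of a tumor, and no Dox control without the construct was analysed here. Below, the active state is KM12 parental or LS174T Dox (+), and the opposite state is KM12 knockout or LS174T Dox (-). The labels name the mouse as organism of the 4 xenografts, but the table holds only human gene rows.

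Replication-dependent histones supply new nucleosomes while DNA is copied: H2A, H2B, H3 and H4 form the core particle and H1 binds the linker between particles. Their messages are made in S phase and are the main animal messages that normally lack a poly(A) tail, because the pre-mRNA is cut after a conserved stem-loop that binds SLBP. Some of these genes also give polyadenylated messages, among them H1-2, H2AC6, H2BC4, H2BC5, H2BC12 and H2BC21, which are known from cells that have left the cycle or are differentiating. Messenger RNA was captured here with oligo(dT), per the labels' protocols, so the values below count mainly the transcripts that this capture retains. How a change in the amount of a message and a change in its tail would each alter these counts cannot be told apart.

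The promoters of 4 members that the results turn on are shown with the 150 bases before the start, written 5′ to 3′ on the coding strand, from RefSeq on GRCh38.p14. Capitals mark the octamer ATTTGCAT (the letters bound by POU2F1), the CCAAT box or its reverse complement ATTGG, and the TATA box TATAAA. H2BC12 and H2BC21 are the 2 H2B genes whose xenograft response differed between the lines, H1-2 is the most abundant member by counts, and H2AC25 differed between the lines in every matched pair.
H2BC12: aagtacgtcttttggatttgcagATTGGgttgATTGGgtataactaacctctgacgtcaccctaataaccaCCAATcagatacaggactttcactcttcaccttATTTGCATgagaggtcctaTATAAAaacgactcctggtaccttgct
H2BC21: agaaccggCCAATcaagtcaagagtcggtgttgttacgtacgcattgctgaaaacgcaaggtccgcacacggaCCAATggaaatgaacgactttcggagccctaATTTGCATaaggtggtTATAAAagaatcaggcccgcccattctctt
H1-2: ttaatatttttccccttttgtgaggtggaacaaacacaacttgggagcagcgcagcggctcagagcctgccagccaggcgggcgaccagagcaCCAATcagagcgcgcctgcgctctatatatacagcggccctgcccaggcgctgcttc
H2AC25: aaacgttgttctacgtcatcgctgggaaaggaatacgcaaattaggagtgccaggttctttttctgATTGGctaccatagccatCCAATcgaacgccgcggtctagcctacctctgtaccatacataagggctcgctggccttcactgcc
These windows lie at chr6:27146859-27147008 for H2BC12, chr1:149886683-149886832 for H2BC21, chr6:26056471-26056620 for H1-2 and chr1:228457874-228458023 for H2AC25, all on the minus strand.

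The letters differ by family. Over windows of 300 bases (250 before the start and 50 after it), searched on both strands, the octamer was found in 14 of 18 H2B and 11 of 16 H2A genes, in 1 of 13 H3 genes and in 0 of 6 H1 and 0 of 13 H4 genes, against 1.77% of the 35116 windows of all genes. The H3 gene is H3C4, whose window in the RefSeq table is the one also listed for the H2A gene H2AC7. CCAAT was found in 56 of 66 members, against 34.6% of all windows, and TATAAA in 44 of 66, against 11.5%. The CCAAT and octamer letters stand together in the H2BC12 and H2BC21 windows above, and neither the H1-2 nor the H2AC25 window holds the exact octamer. The 3′ stem-loop, matched by its consensus, was found in the GENCODE 29 transcript of 32 of 71 members and in 50 of 19684 protein-coding genes (0.254%). A pair of forms is printed because they occur in members named below, with all 16 bases in capitals as the whole match.
H2BC21: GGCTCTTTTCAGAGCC
H2BC5: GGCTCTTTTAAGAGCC
The annotated H2BC21 transcript runs on for 1729 bases after its stem-loop, that of H2AC25 for 390 and that of H2BC5 for 39. A missing match says little for other members, since many gene models hold the coding part alone: that of H2BC12 is 381 bases and that of H1-2 is 642 bases.

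Total counts per library ran from 15924846 to 37735085, and the xenografts (at most 23124811) were shallower than the cultures (at least 31868711). GNAS, the targeted gene, stood at 1117 CPM in the KM12 parental culture and at 297 CPM in the knockout culture, and at 1387 and 901 CPM in the matching xenografts. In LS174T it stood at 1742 CPM with Dox (+) and 690 CPM with Dox (-) in culture, and at 690 and 584 CPM in the xenografts. It was thus higher in the active state in all 4 pairs, but the ratio was 3.75 and 2.52 in the cultures and only 1.54 and 1.18 in the xenografts, where the labels are less well separated by this gene. Summed markers of colorectal epithelium (11 genes, none at 0) stood at 27882 and 22421 CPM in the LS174T cultures with Dox (-) and Dox (+). The sum was 9016 and 6527 CPM in the matching xenografts and 6836 to 9391 CPM in KM12. It was thus lower in the LS174T xenografts, as that of the histones was. In KM12 parental it was also lower in the xenograft (6836 CPM) than in culture (8844 CPM), with 0 of 11 markers higher. There the histone sum was higher, at 158 against 66.7 CPM. In KM12 knockout the marker sum was 9391 CPM in the xenograft and 8968 CPM in culture. By single markers, 4 of the 11 were higher and 7 lower in each LS174T xenograft than in its culture. The 6 fibroblast markers summed to 263 CPM in the KM12 parental xenograft and to 3.48 to 12.7 CPM in the other 7 libraries, led by COL3A1 at 220 CPM. The 4 endothelial markers summed to at most 1.40 CPM, with KDR at 0 throughout. The 5 leukocyte markers summed to 245 CPM in the KM12 parental and 766 CPM in the knockout xenograft, to 268 and 314 CPM in their cultures and to 7.74 to 48.9 CPM in LS174T. In KM12 nearly all of this was LYZ, with PTPRC, the pan-leukocyte marker, at 0 in both KM12 xenografts. RN7SL2, an RNA without a poly(A) tail, was listed at 0.926 to 9.53 CPM in the cultures and 107 to 277 CPM in the xenografts. It is 1 of 32 listed RNAs of this kind. Of the 3 that passed the filter, 1 was above and 2 were below 0 in xenograft over culture across the 4 pairs. The part of these markers and RNAs in the results was not tested. In these bulk libraries fewer cells of a type and less RNA per cell cannot be told apart.

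Histone transcripts were scarce, and they were most abundant in the LS174T cultures and in 1 KM12 xenograft. The summed level of all 71 members was 66.7 CPM (95% Poisson counting interval 63.7 to 69.7) in the KM12 parental culture and 75.9 CPM in the knockout culture. It was 158 CPM (152 to 164) in the KM12 parental xenograft and 75.8 CPM (72.0 to 79.6) in the knockout xenograft. In LS174T it was 174 and 160 CPM in culture with Dox (-) and Dox (+), and 67.0 and 63.9 CPM in the matching xenografts. So 3 libraries stood near 160 CPM or above and the other 5 between 63.9 and 75.9 CPM. The intervals cover counting error only, since 1 library per group leaves the spread between cultures or tumors unmeasured.

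**Figure D1:**
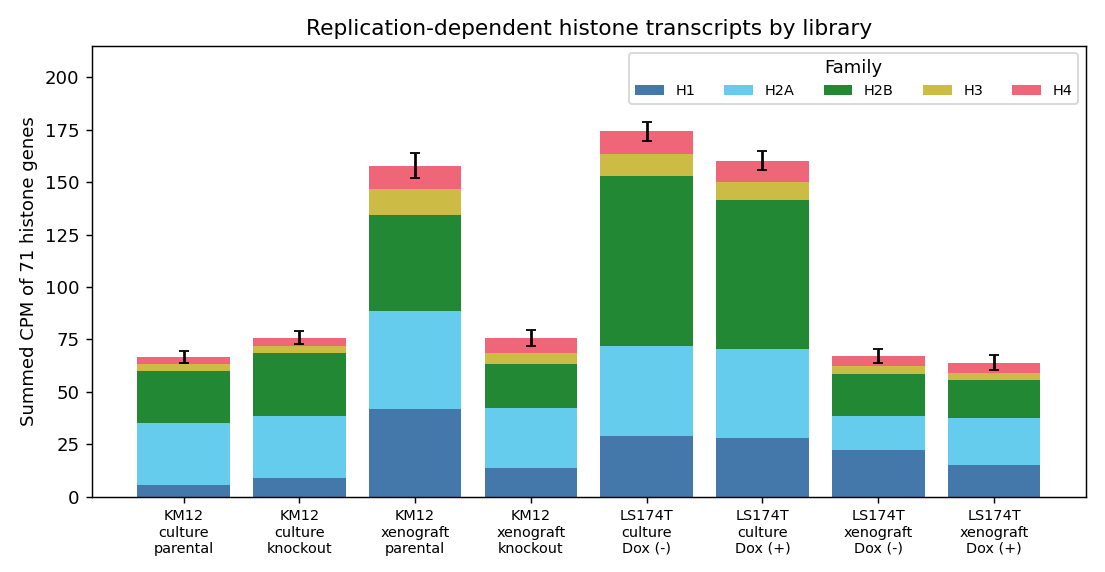
Summed CPM of the 71 replication-dependent histone genes (vertical axis) in each of the 8 libraries, stacked by family, with the 95% Poisson counting interval of the sum as a bar. The KM12 parental xenograft (158 CPM) and both LS174T cultures (174 and 160 CPM) stand above the other 5 libraries, which lie between 63.9 and 75.9 CPM.

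The families did not hold constant shares of these counts. H1 made up 8.08% of the member counts in the KM12 parental culture and 33.0% in the LS174T Dox (-) xenograft, the lowest and highest of the 8 libraries. H2B made up 46.3% and 44.3% in the LS174T cultures but 30.2% and 28.5% in the LS174T xenografts. The H3 genes summed to 3.13 to 12.5 CPM and the H4 genes to 3.47 to 11.1 CPM, so that each of these core families was low in every library. Per length, as mean CPM per kb of merged exons over the 8 libraries, the highest members were H2BC12 at 31.8, H1-2 at 29.03, H2AC25 at 16.9, H2BC5 at 8.71 and H2AC6 at 6.48. The highest H4 and H3 genes by this scale, H4C9 and H3C10, stood at 2.83 and 2.23. The 6 members of the list with known polyadenylated messages (H1-2, H2AC6, H2BC4, H2BC5, H2BC12 and H2BC21) together gave 31.8 of the 66.7 CPM in the KM12 parental culture and 123 of the 174 CPM in the LS174T Dox (-) culture.

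At the edge of the filter, the members just inside had a second-highest unscaled CPM of 1.02 (H1-5), 1.05 (H2BC8) and 1.18 (H3C8), and those just outside 0.988 (H2AC13), 0.776 (H4C8) and 0.772 (H3C4). Of the kept members, H1-5, H3C8, H3C13 and H4C16 reached the filter's level only in the 2 KM12 xenografts. The 48 members not kept had mean levels of at most 0.614 CPM. Shared sequence limits some rows. The share of 100-base runs also found in a transcript of any other gene was 97.6% for H2AC7, 51.3% for H3C13, 28.4% for H2BC12 and 0 for H1-2, H2AC25 and H3C8. Reads falling in such runs could be dropped or assigned to another gene, and strand was not marked by the described library preparation. The kept members also include 5 pairs that start within 1000 bases of each other on opposite strands, such as H2BC21 and H2AC20 at 323 bases and H2AC25 and H2BC26 at 234 bases.

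The comparison of xenograft with culture asks how growth as a tumor in a mouse alters expression. In KM12 parental, all 23 kept members were higher in the xenograft, with a median log2 ratio of 1.45, and 13 of 23 were at least 2-fold higher, against 16.6% of all genes tested. Of these, H1-5, H3C8, H3C13 and H4C16 passed the filter only through the KM12 xenografts, so a rise in KM12 was built into their selection. In KM12 knockout the median was -0.18, with 9 of 23 above 0; 4 were at least 2-fold higher (14.7% of all genes) and 6 at least 2-fold lower (9.52%). In LS174T 19 of 23 were lower in the xenograft with Dox (-) and 18 of 23 with Dox (+), with medians of -0.82 and -1.23, and 10 of 23 (13.9% of all genes) and 12 of 23 (11% of all genes) were at least 2-fold lower; 1 of 23 (21.3% of all genes) and 0 of 23 (19.8%) were at least 2-fold higher. The median over all genes lay between -0.02 and 0.02 in each of these pairs. These medians depend on the filter: over the 8 members with at least 5 CPM in 2 libraries they were 0.62 in KM12 parental and -2.07 in LS174T Dox (-), and -0.52 and -1.72 in KM12 knockout and LS174T Dox (+). The summed level was 2.37 times the culture's in the KM12 parental xenograft (2.23 to 2.51), 0.998 times in KM12 knockout (0.937 to 1.06), 0.384 times in LS174T Dox (-) (0.364 to 0.406) and 0.399 times in Dox (+) (0.375 to 0.424). Scaling by total counts, which moves the median of all genes to 0.28 (log2) in the common xenograft effect, gave 2.84, 1.22, 0.453 and 0.472. It turned the KM12 knockout median to 0.11, with 14 of 23 above 0, and kept the direction of the other 3 pairs, with 23, 6 and 8 of 23 above 0.

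**Figure D2:**
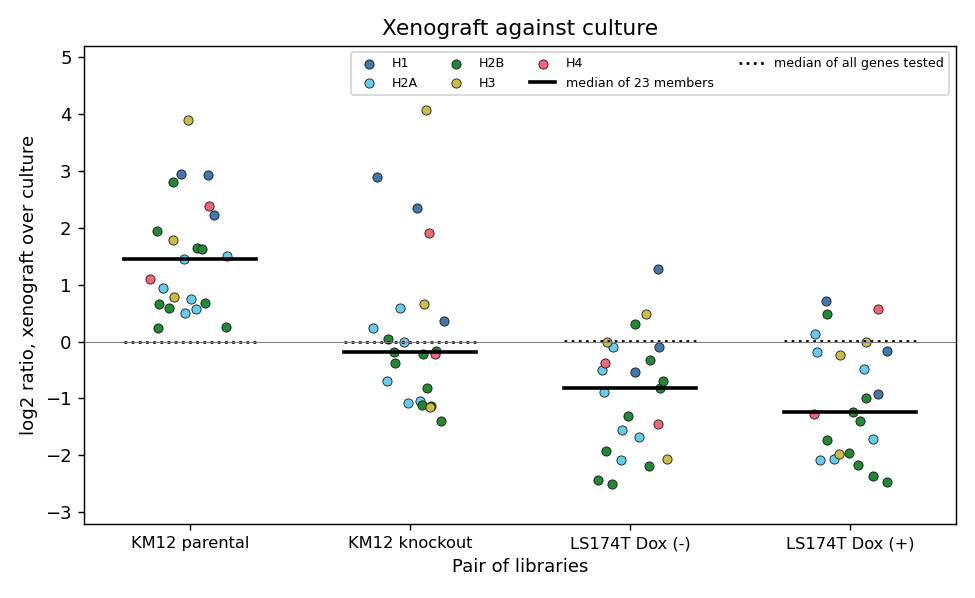
Log2 ratio of CPM, xenograft over culture (vertical axis), for the 23 kept histone genes in the 4 pairs of libraries; each point is 1 gene coloured by family, solid lines are medians of the 23 genes and dotted lines medians of all genes tested. All 23 points lie above 0 in KM12 parental, with a median of 1.45, and most lie below 0 in both LS174T pairs, with medians of -0.82 and -1.23.

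With these opposite directions, no member passed the test of a common xenograft effect over the 4 pairs (edgeR's quasi-likelihood F test, p-values adjusted by Benjamini-Hochberg; smallest adjusted p 0.0682), against 26.1% of all genes tested. At an unadjusted p below 0.05 there were 2 members higher and 2 lower, against 3428 and 3404 of the 16070 genes tested. DESeq2 called 3 members and 6253 genes, and limma-voom 1 member and 5190 genes. Without the KM12 parental pair, 4 of the 18 members then tested passed, all lower in xenografts (H2AC6, H2BC5, H2BC12 and H3C10), against 8.61% of the 15534 genes of that fit in that direction.

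The difference between the lines in the xenograft response was tested directly. H3C8 has no ratio in LS174T, where it had 0 counts. The other 22 members had a lower xenograft-to-culture ratio in LS174T than in KM12 in this fit, with a median difference of -1.98 (log2) against -0.0015 over all genes. The test passed for 3 members, each lower in LS174T: H2BC21, H2BC12 and H3C13. H3C13, like H1-5 and H4C16, passed the filter on low counts only through the KM12 xenografts. A difference in this direction was thus built into their selection. H2AC7 and H2BC8 reached the filter's level only in the KM12 parental xenograft and in LS174T cultures, which favours the same direction. The count of 22 and its median include all of these members. In that direction 5.94% of all genes tested passed; in the other, 0 of 23 members and 7.74% of all genes did. Without the KM12 parental pair the median difference was -0.79 over the 18 members then tested, with 1 of them above 0, and H2BC12, H2BC21 and H1-2 passed. Without either LS174T pair no member passed, while the median stayed at -1.90 and -1.93.

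H2BC12 (older name HIST1H2BK, chr6:27146418-27146798) and H2BC21 (HIST2H2BE, chr1:149884459-149886652) encode H2B proteins, and each is a single-exon gene in GENCODE 29. H2BC12 stood at 7.65 and 9.82 CPM in the cultures of KM12 parental and knockout, at 9.15 and 5.52 CPM in the matching xenografts, at 26.7 and 27.3 CPM in the cultures of LS174T Dox (-) and Dox (+), and at 5.81 and 4.89 CPM in the LS174T xenografts. Both LS174T cultures were above every other library, and the LS174T xenografts overlapped the KM12 libraries. The difference between lines in the xenograft response was -2.06 ± 0.43 (log2, SE, adjusted p 0.0185, edgeR).

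H2BC21 stood at 7.99 and 8.36 CPM in the cultures of KM12 parental and knockout, 12.6 and 7.17 CPM in their xenografts, 22.0 and 16.0 CPM in the cultures of LS174T Dox (-) and Dox (+), and 3.82 and 4.74 CPM in the LS174T xenografts. Its LS174T xenografts were the lowest of the 8 libraries and its LS174T cultures the highest. The difference between lines was -2.36 ± 0.45 (adjusted p 0.0142, edgeR). H2AC20, which starts 323 bases away on the other strand and encodes an H2A, held 0.853 to 1.32 CPM in LS174T and 0.858 to 1.84 CPM in KM12, and its difference of -0.95 ± 0.63 did not pass (adjusted p 0.358, edgeR).

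H3C13 (HIST2H3D, chr1:149813271-149813681), an H3 gene, had few counts. It stood at 0.172 and 0.0292 CPM in the cultures of KM12 parental and knockout (5 and 1 counts) and at 3.60 and 1.70 CPM in their xenografts (63 and 35 counts). In LS174T it stood between 0.153 and 0.298 CPM in all 4 libraries. Both KM12 xenografts were thus above the other 6 libraries. The difference between lines was -4.61 ± 0.99 (log2, adjusted p 0.021, edgeR), and 51.3% of the 100-base runs of this gene occur in another gene.

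H1-2 (HIST1H1C, chr6:26055787-26056428), a linker histone, was the member with the most counts. It stood at 4.94 and 8.30 CPM in the cultures of KM12 parental and knockout and at 38.4 and 10.7 CPM in the matching xenografts. In LS174T it stood at 27.6 and 26.3 CPM in culture with Dox (-) and Dox (+), and at 19.0 and 13.9 CPM in the xenografts. Both KM12 xenografts were above both KM12 cultures, and both LS174T xenografts below both LS174T cultures. The xenograft-to-culture ratio was 7.78 (6.49 to 9.38) in KM12 parental, 1.29 (1.08 to 1.54) in knockout, 0.687 (0.613 to 0.769) in LS174T Dox (-) and 0.529 (0.461 to 0.606) in Dox (+). Its difference between lines, -2.39 ± 0.99, did not pass over all genes (adjusted p 0.211, edgeR), while DESeq2 gave an adjusted p of 0.0127. H1-4, another linker histone, was listed at 0.309 and 0.234 CPM in the KM12 cultures and at 1.72 and 1.502 CPM in the xenografts. In LS174T it stood at 1.04 and 1.26 CPM in culture with Dox (-) and Dox (+) and at 2.64 and 1.11 CPM in the xenografts, so that its highest library was the LS174T Dox (-) xenograft, unlike that of H1-2. H1-3 was not among the kept members.

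Among the H2A genes, H2AC6 (HIST1H2AC) was highest in the LS174T cultures, as were H2BC12 and H2BC21. It stood at 6.83 and 9.18 CPM in the cultures of KM12 parental and knockout, 10.2 and 4.31 CPM in their xenografts, 23.2 and 20.96 CPM in the cultures of LS174T Dox (-) and Dox (+) and 5.44 and 6.34 CPM in the LS174T xenografts. Its LS174T cultures were above all other libraries. The difference between lines of -1.67 ± 0.57 did not pass (adjusted p 0.0972, edgeR). H2BC5 (HIST1H2BD), an H2B gene, stood at 21.1 and 16.8 CPM in the cultures of LS174T Dox (-) and Dox (+) and at 1.74 to 5.32 CPM in the other 6 libraries.

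H3C10 (HIST1H3H), the H3 gene with the highest level per length, stood at 7.93 and 6.71 CPM in the cultures of LS174T Dox (-) and Dox (+), 1.83 and 1.65 CPM in the LS174T xenografts, and 0.339 to 1.77 CPM in KM12. H4C9 (HIST1H4I), its H4 counterpart by level, stood at 6.89 and 6.35 CPM in the LS174T cultures, 2.48 and 2.57 CPM in the LS174T xenografts and 1.99 to 4.63 CPM in KM12. For both genes the LS174T cultures were above all other libraries. H4C16 (HIST4H4), which lies apart from the clusters on chromosome 12, stood instead highest in the KM12 xenografts, at 3.20 and 2.95 CPM, and at 0.549 to 1.07 CPM in the other 6. H3C4 and H4C3, the third members of these families by level per length after H3C13 and H4C16, had at most 25 and 11 counts in a library, too few to order the groups.

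Counted over the kept members, 14 of 23 had both LS174T xenografts below both LS174T cultures, a pattern seen in 37.6% of all genes tested. Only H2BC15 of the 23 had both above (39.6% of all genes). In KM12, 9 of 23 had both xenografts above both cultures, against 33.3% of all genes, a share close to the background, and 0 of 23 had both below (35.7%). The 9 include H1-5, H3C8, H3C13 and H4C16, for which the filter built this pattern into the selection. In the KM12 libraries 20 of 23 members were highest in the parental xenograft, against 30% of all genes; the exceptions were H2AC20, H2BC4 and H2BC12.

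**Figure D3:**
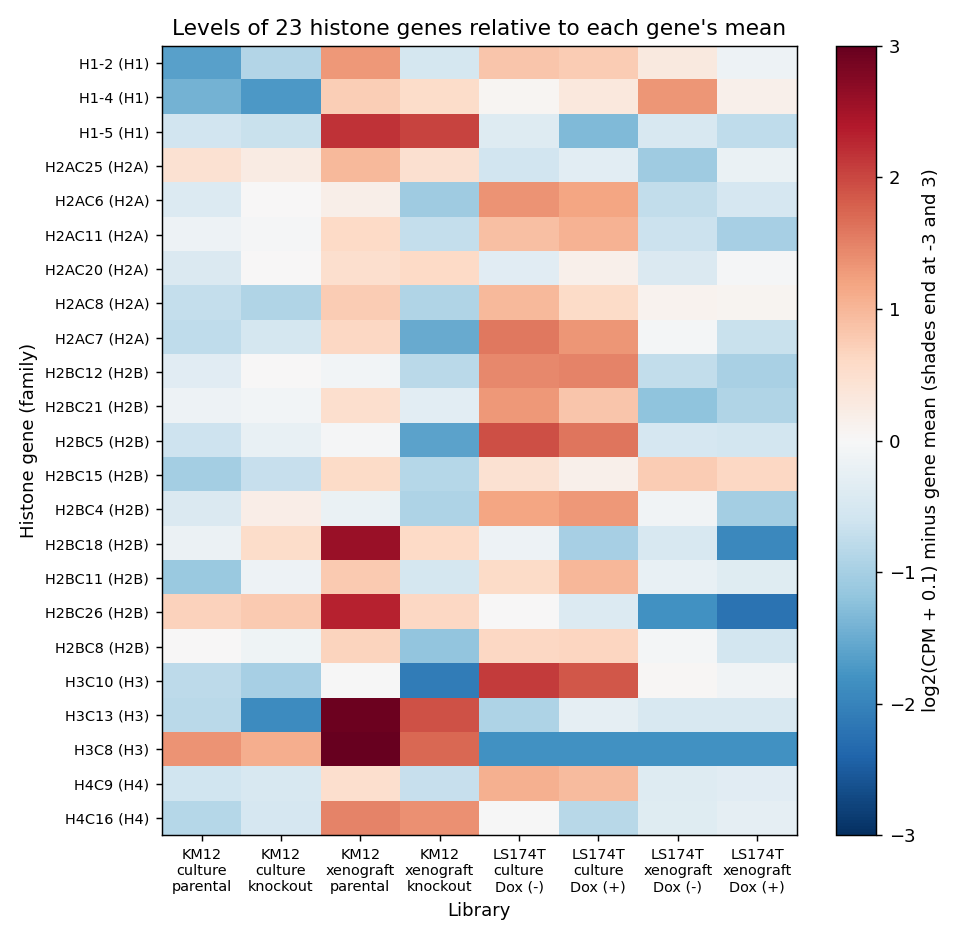
Log2(CPM + 0.1) of the 23 kept histone genes minus each gene's mean over the 8 libraries (colour; shades end at -3 and 3), with genes as rows ordered by family and mean level and libraries as columns. Red blocks stand in the KM12 parental xenograft for H1-5, H2BC18, H2BC26, H3C13 and H3C8, and in the LS174T cultures for H2BC5 and H3C10, while H3C8 has no counts in LS174T. H1-5, H3C13 and H3C8 were also above their means in the KM12 knockout xenograft, at 0.920, 1.70 and 1.07 CPM.

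The comparison of the GNAS states asks whether mutant GNAS alters expression. In the KM12 xenografts 22 of 23 members were higher in the parental library, with a median log2 ratio of 1.33, and 15 of 23 were at least 2-fold higher, against 7.13% of all genes tested. Of the 23, only 17 passed the filter without these 2 libraries. H2BC8 passed it only through the KM12 parental xenograft and the LS174T Dox (+) culture, both active libraries. Its being higher in the active state was thus built into its selection. In the other pairs the members stood near or below 0: the median was -0.11 in KM12 culture (8 of 23 above 0), -0.12 in LS174T culture (10 of 23) and -0.14 in LS174T xenografts (6 of 23). At least 2-fold differences numbered 1 higher (1.26% of all genes) and 0 lower (1.79%) in KM12 culture, 0 higher (1.19%) and 1 lower (1.43%) in LS174T culture, and 0 higher (3.91%) and 2 lower (5.2%) in LS174T xenografts. The KM12 parental xenograft library stands in both this pair and the xenograft-to-culture pair above, so that these are not independent observations, and it is also the library with 263 CPM of fibroblast markers. The KM12 knockout xenograft held 12.7 CPM of them, and had more LYZ (764 against 244 CPM). Their part in the histone values was not tested.

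**Figure D4:**
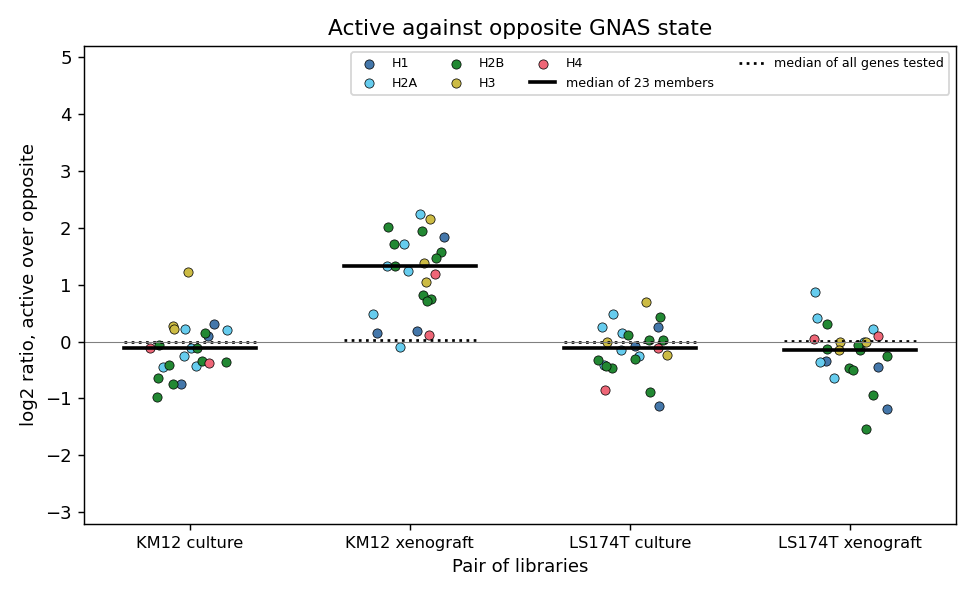
Log2 ratio of CPM, active over opposite GNAS state (vertical axis), for the 23 kept histone genes in the 4 pairs of libraries; points are genes coloured by family, solid lines their medians and dotted lines the medians of all genes tested. The KM12 xenograft pair has 22 of 23 points above 0 and a median of 1.33, and the other 3 pairs have medians between -0.14 and -0.11.

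Over the 4 pairs the median GNAS effect on the members was 0.16 (log2), with 18 of 23 above 0, and it was -0.18, with 2 of the 17 members then tested above 0, without the KM12 xenograft pair. No member passed the test (edgeR as above, smallest adjusted p 0.775), nor did any gene of the table (0% called, with 977 genes at an unadjusted p below 0.05). DESeq2 and limma-voom called 0 members, and 57 and 0 genes. Whether the effect differs between xenograft and culture was not tested. Between the lines the GNAS effect differed for 0 members and 1 gene (0.00622% of those tested). No member had an unadjusted p below 0.05 there, and DESeq2 and limma-voom called 0 members. The median difference over the members was -0.75 (log2). It was -1.44 without the KM12 culture pair and 0.15, over 17 members, without the KM12 xenograft pair. Each of these 2 fits leaves 1 pair in KM12.

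H2AC25 (HIST3H2A, chr1:228456979-228457873) encodes an H2A in the small cluster of chromosome 1 and was the one member higher in the active state in all 4 pairs, against 9.17% of all genes tested. Its level was 19.0 and 16.3 CPM in the cultures of KM12 parental and knockout, 27.2 and 19.4 CPM in their xenografts, 9.28 and 11.1 CPM in the cultures of LS174T Dox (-) and Dox (+), and 6.58 and 12.1 CPM in the LS174T xenografts. Each active library was above its partner, by ratios of 1.17 to 1.84. The GNAS effect of 0.45 ± 0.16 (log2, SE) had an unadjusted p of 0.0205 and an adjusted p of 0.775 by edgeR.

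The comparison of the lines matches active with active and opposite with opposite states, which are different interventions in KM12 and LS174T. Of the 23 members, 2 passed and both were lower in LS174T, H2AC25 and H3C8, while 14.8% of all genes tested passed in that direction. In the other direction 0 of 23 members and 16.7% of all genes tested passed. H3C8 passed the filter on low counts only through the KM12 xenografts, so its being higher in KM12 was built into its selection, while H2AC25 passed it in all 8 libraries. In culture, 15 of 23 had both LS174T libraries above both KM12 libraries (41.4% of all genes) and 3 of 23 had them below (41.8%). In xenografts 1 of 23 had both LS174T libraries above both KM12 ones (31.7%) and 9 of 23 had them below (32.9%). Of the 9, H1-5, H2BC18, H2BC26, H3C13, H3C8 and H4C16 reached the filter's level only in KM12 libraries. Being lower in LS174T was thus built into their selection. Only H2AC25, H2BC26 and H3C8 of the 23 had all 4 LS174T libraries below all 4 KM12 libraries (14.5% of all genes).

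H2AC25 was lower in LS174T by the values given above, 6.58 to 12.1 CPM against 16.3 to 27.2 CPM, with no overlap. It fell by 1.08 ± 0.20 on the log2 scale (adjusted p 0.0134, edgeR) and passed whichever pair was left out. H2BC26 (HIST3H2BB), its divergent H2B neighbour, stood at 1.37 and 1.49 CPM in the cultures of KM12 parental and knockout, 4.46 and 1.31 CPM in their xenografts, 0.827 and 0.595 CPM in the cultures of LS174T Dox (-) and Dox (+) and 0.162 and 0.0968 CPM in the LS174T xenografts. Its 4 LS174T libraries were also all lower, which was built into its selection, since it reached the filter's level only in KM12 libraries. The difference of -2.31 ± 0.83 did not pass (adjusted p 0.0846, edgeR), while DESeq2 gave 0.0171.

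H3C8 (HIST1H3G, chr6:26269405-26271815), an H3 gene, had 23 and 22 counts in the cultures of KM12 parental and knockout, 51 and 22 in their xenografts, and 0 in each of the 4 LS174T libraries. Against a floor of 3 counts in the LS174T library, its CPM was at least 7.96-fold and 7.00-fold lower in the active and opposite LS174T cultures, and at least 20.1-fold and 8.75-fold lower in the xenografts. The fitted line effect passed (adjusted p 0.0228, edgeR), and also without either culture pair (adjusted p 0.0317 and 0.0276). Without either xenograft pair the gene was below the filter on low counts and was not tested. Among all 71 members, 4 had at least 10 counts over the KM12 libraries and 0 over the LS174T libraries: H3C3 with 30, H3C8 with 118, H2BC10 with 14 and H3C11 with 18. Of the 51 members with at least 10 counts in a line this is 4, and 0 showed the reverse, against 1.18% and 2.69% of the 23840 genes of the table with as many counts. H2BC10 starts on chromosome 6 at 26272976, next to H3C8, and the summed depth of the lines was similar, 104191092 counts in KM12 and 110331872 in LS174T.

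H2BC15 (HIST1H2BN), an H2B gene whose model overlaps 2 other members, was the 1 of 23 higher in LS174T in all 4 pairs, against 25.7% of all genes tested. It stood at 0.721 and 0.935 CPM in the KM12 cultures, 2.40 and 0.823 CPM in the KM12 xenografts, 2.17 and 1.75 CPM in the LS174T cultures and 2.72 and 2.47 CPM in the LS174T xenografts. The KM12 parental xenograft overlapped the LS174T range, and the effect of 1.06 ± 0.39 did not pass (adjusted p 0.0923, edgeR).

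**Figure D5:**
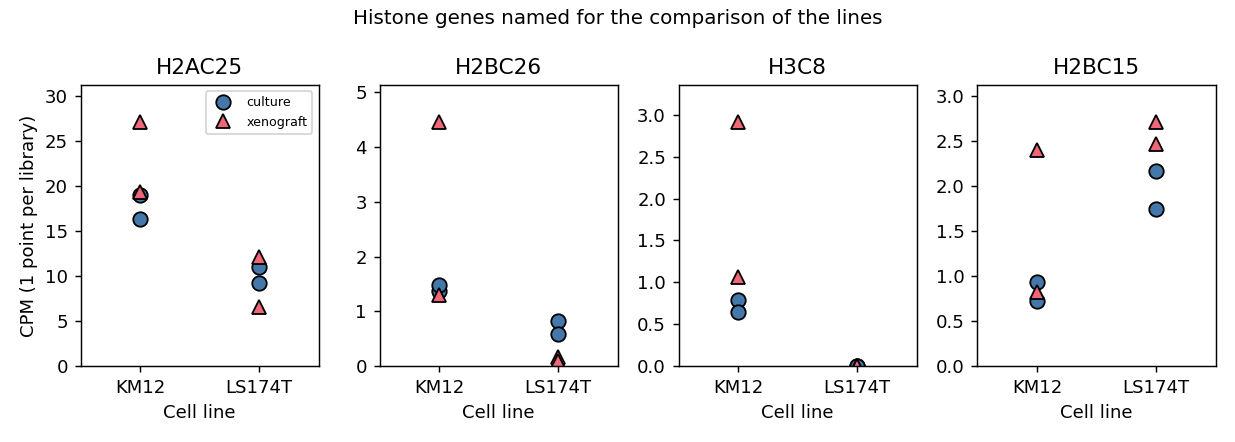
CPM (vertical axis, from 0, a different scale in each panel) of H2AC25, H2BC26, H3C8 and H2BC15 in KM12 and LS174T; each point is 1 library, circles are cultures and triangles xenografts. The LS174T points lie below all KM12 points for H2AC25, H2BC26 and H3C8 (0 counts in LS174T), and the KM12 parental xenograft overlaps the LS174T points for H2BC15.

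The replication-independent variants, which are mostly made throughout the cycle with poly(A) tails, are described for comparison. In xenografts 5 of 12 rose, 0 fell and 7 did not pass, also with total counts, against 12.6% of all genes tested that rose and 13.5% that fell. H3-3A, which encodes H3.3, stood at 40.1 to 48.4 CPM in the 4 cultures and at 207 to 291 CPM in the 4 xenografts, without overlap, a rise of 2.47 ± 0.13 (log2, adjusted p 0.00301, edgeR). H3-3B, the second H3.3 gene, stood at 449 to 513 CPM in cultures and 409 to 520 CPM in xenografts. H2AZ1, a variant placed at promoters, rose by 0.67 ± 0.12 (adjusted p 0.0186, edgeR) and H1-10, a linker variant, by 1.14 ± 0.22 (adjusted p 0.0206, edgeR). H2AX, the variant that marks DNA breaks, whose message can end at a stem-loop or a poly(A) tail, had a GNAS effect of 0.47 ± 0.13 with an adjusted p of 0.775 by edgeR. No variant passed the GNAS test.

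Of the 30 genes of histone transcription and message processing, 10 fell and 1 rose in xenografts, against 13.5% and 12.6% of all genes tested. With total counts in place of TMM, 4 fell and 6 rose. SNRPD3, a ring protein shared by the splicing and histone U7 particles, fell by 0.94 ± 0.11 (adjusted p 0.0098, edgeR). LSM10, which is specific to the U7 particle that directs the 3′ cut, stood at 31.6 to 49.2 CPM in cultures and 9.22 to 15.2 CPM in xenografts and fell by 1.63 ± 0.23 (adjusted p 0.0122, edgeR). NELFE, a pausing factor subunit, fell by 0.83 ± 0.11 (adjusted p 0.0118, edgeR). SLBP stood at 62.5 to 78.6 CPM in cultures and 77.1 to 111 CPM in xenografts, with an effect of 0.33 ± 0.12 that did not pass (adjusted p 0.0843, edgeR). NPAT, the cyclin E-CDK2 target that activates histone transcription, stood at 18.1 to 27.4 CPM in all libraries. The 2 genes of this list with the smallest p for the GNAS effect were CCNE1 (0.43 ± 0.17) and CSTF2T (0.27 ± 0.12), each with an adjusted p of 0.775 by edgeR.

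Of 16 histone chaperones 6 fell and none rose in xenografts by edgeR: CABIN1 of the H3.3 deposition complex (-0.69 ± 0.12), SSRP1 of FACT (-0.63 ± 0.13) and CHAF1A of the replication-coupled assembly factor (-0.57 ± 0.12) had the smallest p. With total counts 1 fell and 1 rose. Of 30 S phase genes 5 fell and 1 rose, a share of falls near that of all genes (13.5%), and with total counts 2 fell and 7 rose. FEN1, the flap nuclease of lagging-strand synthesis, fell by 0.75 ± 0.12 (adjusted p 0.0141, edgeR) and CDC45, a helicase subunit, by 0.72 ± 0.13 (adjusted p 0.0168, edgeR), while UHRF1, which maintains DNA methylation, rose by 0.55 ± 0.12 (adjusted p 0.0261, edgeR). All 30 S phase genes had a GNAS effect above 0, with a median of 0.20 against 0.014 over all genes, and none passed. GINS2 (0.45 ± 0.13) and RFC4 (0.34 ± 0.11) had the smallest p, with adjusted p of 0.775 by edgeR.

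By summed level, the S phase genes did not show the spread of the cluster genes between libraries. Their sum ran from 2504 to 3244 CPM over the 8 libraries, while that of the histone cluster genes ran from 63.9 to 174 CPM. The sums differ widely in abundance, and the part of S phase in the histone values was not tested. In the KM12 parental xenograft the S phase sum was 3011 CPM, against 3060 CPM in its culture, and in LS174T Dox (-) it was 2504 CPM against 2647 CPM. Of 20 genes of G2 and mitosis 3 fell in xenografts, TPX2, PLK1 and AURKB, also near the 13.5% of all genes, and with total counts none fell and 1 rose (edgeR). MKI67, a proliferation marker, stood at 425 and 565 CPM in the cultures of KM12 parental and knockout, 359 and 406 CPM in their xenografts, 237 and 326 CPM in the cultures of LS174T Dox (-) and Dox (+) and 117 and 88.5 CPM in the LS174T xenografts, so that the order of the libraries by MKI67 was not their order by histone sum. Of the 20 genes of G2 and mitosis, however, 18 were higher in the KM12 parental than in the knockout xenograft (median log2 ratio 0.36). Their median xenograft-to-culture ratios were 0.05 and -0.40 in KM12 parental and knockout, and -0.26 and -0.61 in LS174T Dox (-) and Dox (+). In LS174T culture all 20 were higher with Dox (+), against 10 of 23 histone genes. The part of cell division in the histone values was not tested. MALAT1, a long nuclear RNA, stood at 63.7 to 127 CPM in cultures and 126 to 424 CPM in xenografts.

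By correlation of log2 CPM over the 8 libraries, the genes most like H2BC12 were CEMIP2 (Pearson's r 0.989), LETM1 (0.984) and the row ENSG00000268858 (0.981), each with its highest levels in the LS174T cultures. CEMIP2 stood at 353 and 406 CPM in the cultures of LS174T Dox (-) and Dox (+) and at 109 to 180 CPM in the other 6 libraries. Those most like H1-2 were TRIM29 (0.983), CD101 (0.981) and FAM185BP (0.961). TRIM29 stood at 116 CPM in the KM12 parental xenograft, 72.9 and 54.6 CPM in the LS174T cultures and 0.652 to 16.4 CPM in the other 5 libraries. These values are the highest of 16070 genes over 8 libraries that share 2 lines and 2 environments, and are given as a description.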

How the data were processed

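The authors deposited raw read counts per human gene, the only values used. Per the submitters' processing notes, STAR 2.7.2b and HTSeq 0.11.0 made them; the annotation release, the strand setting and the handling of mouse reads and of reads in several copies of a gene are not given in the sources used here. Per the labels' protocols, oligo(dT) beads captured the mRNA and random hexamers primed its copying. Symbols and coordinates came from GENCODE 29 and RefSeq (GRCh38).

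Libraries were scaled by TMM. The 16070 genes reaching 1 CPM in 2 or more libraries were tested with edgeR 4.0.16 (R 4.3.3), quasi-likelihood F test, Benjamini-Hochberg over all genes, threshold 0.05. Each SE is the absolute log2 difference over the square root of F. Pairs of matched libraries were the block, leaving 3 residual degrees of freedom, or 2 for differences between lines. Labels name no replicate cultures or animals, so p-values measure the spread between pairs. Single pairs were described by log2 ratios (prior count 2) and CPM ratios with exact 95% intervals. Alternatives were RLE and total-count scaling, no filter, DESeq2 1.42.0, limma-voom (limma 3.58.1), other prior counts, a stricter filter and each pair left out. The tests were tested on simulated data.

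Members and gene lists were chosen with earlier results of these data known. Named were the 3 highest members per family by CPM per kb, members past each test or, failing that, the 3 per direction of smallest p with 1 sign in all pairs, for each list the 3 and 2 genes of smallest p for the xenograft and GNAS effects, and GNAS, MKI67, SLBP, NPAT, H2AX and H3-3B; 1 further gene of the rule is not reported here. Other members were named after their values were seen, where a result or count turned on them.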

Additional observations from a re-analysis of the deposited data

Results flagged for a closer look

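Of the 23 histone genes, 3 had a difference between the lines in the xenograft-to-culture effect by a test of the difference itself (edgeR's quasi-likelihood F test, Benjamini-Hochberg adjusted, LS174T minus KM12, log2). The difference was -4.61 for H3C13, -2.36 for H2BC21 and -2.06 for H2BC12. H2BC12 and H2BC21 were lower in both LS174T xenografts than in both LS174T cultures. H3C13 was higher in both KM12 xenografts and rests on 5 and 1 counts in the KM12 cultures.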

How the results depend on the processing

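Of the recomputed counts and medians 124 stayed within 1.5 times or within counting error and 44 moved. In single genes 142 values kept direction and side of the threshold, 15 passed where they had not, 6 no longer passed and 2 turned; the cause was not tested. Members past the xenograft test numbered 3 with DESeq2 and 1 with limma-voom (0 as reported), against 6253 and 5190 genes (4189 as reported). For the line they numbered 4 without a filter, 5 with DESeq2 and 4 with limma-voom (2 as reported). The genes past the line test numbered 5249, 6591 and 5569 (5069 as reported). For the difference in xenograft response between lines, 12 members and 3428 genes passed without a filter. The GNAS effect was called in 281 genes without a filter and 57 with DESeq2, and its difference between lines in 123, 5 and, with limma-voom, 0 genes. A minimum of 5 CPM left 8 members, with median ratios of 0.62 in KM12 parental and -2.07 in LS174T Dox (-). Total-count scaling gave ratios of summed CPM of 2.84, 1.22, 0.453 and 0.472, moved the all-gene median of the xenograft effect from 0.02 to 0.28 and the share of higher calls from 48.3% to 77.1%.

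Leaving out each pair in turn, xenograft calls ran from 11 (without LS174T active) to 2613 genes (without KM12 active) and from 0 to 4 members, with 3 to 13 above 0. H1-2 ran from -0.36 (without KM12 active) to 0.87. GNAS calls ran from 0 to 1 gene, with 2 (without the KM12 xenograft pair) to 20 members above 0. Line calls ran from 2726 to 4152 genes and from 1 to 6 members. The difference in xenograft response between lines ran from 17 genes and 0 members (without an LS174T pair) to 3020 genes and 11 members (without KM12 opposite), with 0 or 1 member above 0. H2BC21, H2BC12 and H3C13 had adjusted p of 0.102 to 0.184 by edgeR without either LS174T pair. The GNAS difference between lines ran from 0 to 715 genes (without KM12 culture), 0 to 3 members and 2 to 11 above 0, and H2AC25 from -0.10 (without the LS174T xenograft pair) to 0.53. The fits left with 1 pair in a line assume that it varies like the other line. The main fits block on matched pairs; the labels carry no replicate numbers. With 1 library per group, values under 1 CPM rest on few counts, and spread between tumors or cultures is unknown.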
